A study of Mus musculus with 6 samples.

Results

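The guidance genes described here are the semaphorins, ephrins, Slits and netrins together with their receptors, the plexins, neuropilins, Eph receptors, Robos and Unc5 receptors. They were chosen by gene symbol alone, and 67 of the 48368 symbols in the deposited tables matched. Of these, 34 encode ligands: 7 class 3 semaphorins, 13 semaphorins of classes 4 to 7, 8 ephrins, 3 Slits and 3 netrins. The other 33 encode receptors: 9 plexins, 2 neuropilins, 14 Eph receptors, 4 Robos and 4 Unc5 receptors.

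RNA was measured by whole-transcriptome sequencing in 6 libraries of cancer-associated fibroblasts, stromal cells that had been taken from mammary tumours of MMTV-PyMT mice and grown in culture. In these mice a mammary tumour virus promoter drives the polyomavirus middle T oncogene in mammary epithelium, so all 6 libraries share that transgene. The groups were 3 libraries labelled HET, from Hic-5+/- tumours, and 3 labelled KO, from Hic-5-/- tumours. No wild-type group was analysed here, and the labels give no age and no culture time. Libraries are written HET 1 to 3 and KO 1 to 3, with numbers in accession order that pair nothing. The series text calls the libraries technical triplicates, while their titles carry different numbers except that HET 3 and KO 3 share a number. The p-values below therefore measure only the spread between these libraries, which may be technical. Between libraries of a label, the variance over the guidance genes was 276 to 899 times what counting alone gives (chi-square statistic over its degrees of freedom). This ratio grows with the count, so abundant genes weigh most in it.

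Guidance genes were named for steering growing axons, and most of their proteins act at the cell surface. Secreted class 3 semaphorins bind a neuropilin, which signals through a plexin, while most semaphorins of classes 4 to 7 are membrane-bound and bind plexins directly. Ephrins are membrane-anchored and signal to Eph receptor kinases on a touching cell, and back into their own cell. Slits are secreted ligands of Robo receptors, and netrins are laminin-related secreted proteins that bind Dcc, neogenin and the Unc5 receptors. Hic-5, encoded by Tgfb1i1, is a LIM-domain adaptor of focal adhesions. In fibroblasts and other motile cells the plexin, Eph and Robo pathways act on the actin cytoskeleton.

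Library totals ran from 24954273 to 42470598 estimated counts, and the guidance genes took 0.2094% to 0.355% of them. Values are CPM, counts relative to the library total as adjusted by TMM factors, unless another scale is named. Tgfb1i1 itself stood at 223, 348 and 125 CPM in HET 1 to 3, and at 90.4, 0.232 and 156 CPM in KO 1 to 3. KO 3 lay within the HET range and only KO 2 lay far under all other libraries, so the groups are called by their labels throughout. KO 2 stood apart: Col1a2, a fibrillar collagen of fibroblasts, was at 0.491 CPM there and at 577 to 5109 CPM elsewhere, and 7 epithelial markers summed to 82.7 CPM against 1.02 to 9.44 CPM. The 8 fibroblast markers summed to 7048 to 14398 CPM in HET against 2999 to 5689 CPM in KO. Of these markers, Col1a1 and Col1a2 were lower in every KO library than in any HET library. Pdgfra, Dcn, Lum, Thy1, Fap and Vim overlapped between the labels. In KO 2, Col1a1 stood at 2.56 CPM against 274 to 4948 CPM elsewhere, and Thy1 at 0.981 CPM against 75.7 to 1573 CPM. Dcn, at 0.775 CPM, and Lum, at 0.0258 CPM, were also lowest in KO 2. Pdgfra was lowest there too, but at 124 CPM it lay near KO 3, at 143 CPM. Vim alone stood at 2870 CPM in KO 2, within the range of the other libraries, and so made up most of the sum there. How far KO 2 holds fibroblasts was not tested. The 7 leukocyte markers summed to 1355 CPM in HET 2 and 1101 CPM in KO 3, against 7.49 to 39.3 CPM in the other 4 libraries, with Lyz2 highest among them and the T cell marker Cd3e at or near 0 in all 6. Sums for 7 endothelial markers were 2.04 to 7.48 CPM in HET against 0.31 to 2.74 CPM in KO. The 7 Schwann and glial markers summed to 4.14 to 19.0 CPM in HET against 3.72 to 11.9 CPM in KO. The 7 pericyte and smooth muscle markers summed to 42.5 to 271 CPM in HET against 1.14 to 61.0 CPM in KO, highest in HET 2.

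Between the labels, the ligands Slit3 and Sema3c had HET means 8.42 and 9.44 times their KO means, while for Sema3a and Sema3e the KO means were 5.2 and 11.2 times the HET means. Single libraries weigh in these means: the log2 fold change of Sema3e was 3.48 with all libraries and 0.85 without KO 2, and that of Sema3c was -3.24 with all libraries and -1.88 without HET 3. Among receptors, Ephb3 was lower in every KO library than in any HET library. No guidance gene passed edgeR's test. Of the 67 guidance genes, 56 had enough counts to be tested and 11 did not: Sema3g, Sema5b, Ntn5, Epha5, Epha6, Epha8, Epha10, Ephb1, Plxnb3, Robo4 and Unc5d. By edgeR's quasi-likelihood test, 0 of 17584 tested genes (0%) and 0 of 56 guidance genes passed an adjusted p of 0.05, and the smallest adjusted p of a guidance gene was 0.579. DESeq2 called 232 of 17411 genes (1.33%), among them 2 guidance genes, Sema3c and Slit3, while limma-voom called 0. DESeq2 gave no adjusted p for Sema3e, Ntn4 and Plxnc1.

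At an unadjusted p under 0.05 in edgeR, 4 guidance genes were higher in KO (Sema3a, Sema3e, Epha2 and Unc5a), which is 7.14% of those tested beside 4.30% (756) of all genes. In the other direction 6 were lower (Slit2, Slit3, Sema3c, Sema3b, Efnb1 and Ephb3), which is 10.7% beside 4.29% (755). Of these 10, 7 are among the 31 tested ligands and 3 among the 25 tested receptors, a split that was not tested. The HET and KO libraries did not overlap for 2 guidance genes higher in KO (Sema3e and Unc5a), 3.57% beside 8.10% of all genes. They did not overlap for 5 lower in KO (Slit1, Slit3, Sema3c, Sema6d and Ephb3), 8.93% beside 7.42%. Counts by this measure were thus near or under the background. The median log2 fold change was 0.18 over the tested guidance genes and 0.01 over all genes, with 32 positive and 24 negative values.

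Many guidance genes ranged widely between libraries, which is given here with no test. The highest library was a median 8.45 times the lowest over guidance genes, and 2.38 times over all tested genes. For ligands this median was 15.5, and for receptors 7.20. Tested genes with no count in some library, such as Epha3, have no such ratio and were left out of these medians. The guidance genes were not matched on level to the rest. Among the steadiest were Plxnb2 (1.77 times), Sema4c (1.90 times), Robo1 (1.92 times), Ephb4 (2.17 times) and Plxna1 (2.25 times), named after their values were seen.

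**Figure D1:**
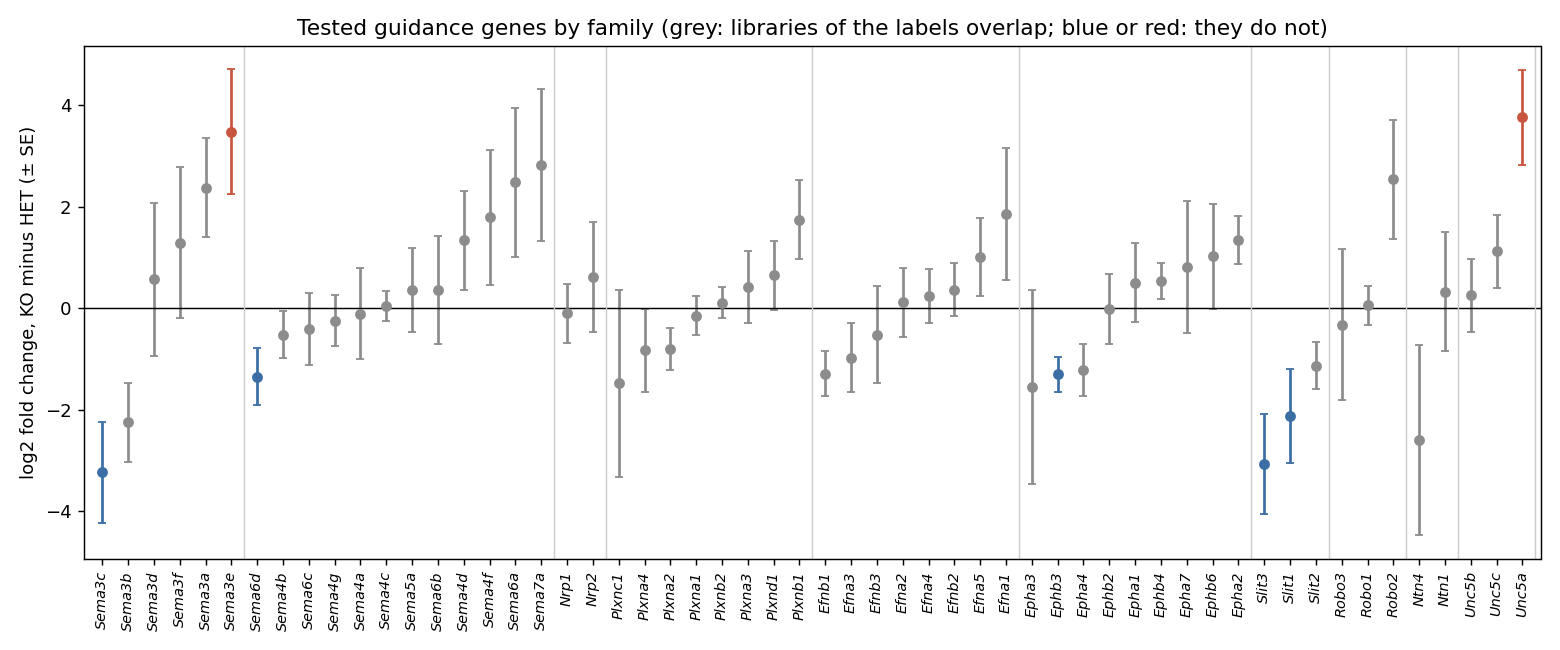
Log2 fold change of each tested guidance gene, KO minus HET, with its standard error (vertical bars) and genes grouped by family along the horizontal axis. Coloured points mark the 7 genes whose HET and KO libraries do not overlap, blue for lower and red for higher in KO, while all other points are grey.

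Of the 7 genes whose libraries did not overlap between labels, 4 have a RefSeq start window with a long stretch before the GENCODE gene start, and that stretch is given. Their sequences are shown as examples of start regions of genes with non-overlapping labels, and they are from RefSeq, build GRCm38.p6, plus strand, 5′ to 3′. Capitals mark each GC box (GGGCGG, searched on both strands, so that CCGCCC is its reverse, with overlapping matches counted).
Ephb3, chr16:21204545-21204754: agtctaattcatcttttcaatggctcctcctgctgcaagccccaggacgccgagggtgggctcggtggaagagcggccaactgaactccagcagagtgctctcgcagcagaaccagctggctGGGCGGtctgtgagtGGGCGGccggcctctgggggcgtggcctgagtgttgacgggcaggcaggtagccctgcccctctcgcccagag
Sema6d, chr2:124089719-124089968: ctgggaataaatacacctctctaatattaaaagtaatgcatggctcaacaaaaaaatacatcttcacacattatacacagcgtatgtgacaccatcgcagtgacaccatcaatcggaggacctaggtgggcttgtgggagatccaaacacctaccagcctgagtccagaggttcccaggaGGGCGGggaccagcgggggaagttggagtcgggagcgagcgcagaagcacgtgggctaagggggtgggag
Sema3e, chr5:14025026-14025275: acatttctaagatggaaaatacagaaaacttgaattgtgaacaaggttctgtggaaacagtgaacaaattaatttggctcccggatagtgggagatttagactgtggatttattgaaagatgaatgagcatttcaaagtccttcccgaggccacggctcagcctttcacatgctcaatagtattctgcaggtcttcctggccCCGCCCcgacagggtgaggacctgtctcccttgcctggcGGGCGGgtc
Unc5a, chr13:54949161-54949410: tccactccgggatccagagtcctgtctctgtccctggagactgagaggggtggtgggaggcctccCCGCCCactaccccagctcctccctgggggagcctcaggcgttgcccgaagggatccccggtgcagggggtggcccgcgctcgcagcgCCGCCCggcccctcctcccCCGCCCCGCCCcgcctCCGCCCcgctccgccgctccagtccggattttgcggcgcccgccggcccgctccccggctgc
The Unc5a stretch held 5 GC boxes, those of Ephb3 and Sema3e held 2 each, and that of Sema6d held 1. Over all guidance genes, 58 of 67 matched the RefSeq table with 74 windows of 250 bases, and 70.3% of those windows held a GC box beside 32.7% of all 32851 windows in the table. The guidance windows held a median of 15.5 CpG dinucleotides, and all windows a median of 6. The guidance windows were not matched to the rest on CpG content, gene type or level. An AP-1 site (TGANTCA) was in 6.7% and a TATA box (TATAAA) in 12.4% of all windows, and neither was in these 4 windows. A match describes letters in a window and is not a bound site.

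Slit3 led the Slits per kb of exon in every library except KO 2, where Slit2 led, and it stood lower in all 3 KO libraries than in any HET library. It lies on chromosome 11 from 35121224 to 35708507 (GRCm38, plus strand). It stood at 421, 391 and 399 CPM in HET 1 to 3, and at 87.1, 3.75 and 52.9 CPM in KO 1 to 3. The HET libraries lay close together, and every KO library lay at least 4 times under them, with KO 2 far under the other 2. The means were 403.6 ± 15.7 CPM in HET against 47.9 ± 41.9 CPM in KO (SD, n = 3 each), so the HET mean was 8.42 times the KO mean. The log2 fold change came to -3.07 ± 0.99 (SE), at an adjusted p of 0.579 in edgeR and 0.0377 in DESeq2. Without KO 2, the library with the most epithelial transcripts and the least Tgfb1i1 (0.232 CPM), it was -2.52. In these bulk libraries, fewer cells that make Slit3 and less Slit3 RNA per cell cannot be told apart.

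Slit2 was at 201, 102 and 247 CPM in HET and at 113, 92.4 and 45.8 CPM in KO, where KO 1 lay above HET 2. Its log2 fold change came to -1.13 ± 0.45 (SE), at an adjusted p of 0.579 in edgeR. Slit1, described after its values were seen, was scarce at 2.59, 2.84 and 2.39 CPM in HET and lower still at 1.14, 0.0517 and 0.595 CPM in KO. All 3 Slits therefore stood lower in KO, though for Slit2 the libraries overlapped. Summed per kb of exon, the 3 Slits came to 77.7, 68.9 and 75.9 in HET and to 19.0, 4.26 and 10.6 in KO (CPM per kb). Slit3 made up 86.6% to 93.5% of the Slit sum in HET and 75.6%, 14.5% and 82.1% of it in KO 1 to 3.

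The Robo receptors were scarce beside their ligands, and none separated the labels. Robo1, the most abundant by CPM, stood at 5.84, 11.2 and 7.26 CPM in HET and at 6.30, 7.75 and 11.2 CPM in KO, nearly the same range in both. Robo2 was at 0.0354, 0.398 and 0.706 CPM in HET against 2.55, 0.336 and 3.81 CPM in KO, where KO 2 lay inside the HET range. The log2 fold change came to 2.54 ± 1.17 (SE), at an adjusted p of 0.589 in edgeR, and it rested on 1, 14 and 18 counts in HET. Robo3 was at 0.213, 0.455 and 2.67 CPM in HET against 2.32, 0.0258 and 0.278 CPM in KO, and no label was higher throughout. Robo4, the endothelial member, had 1 count in each of 2 libraries and 0 in the other 4. Summed, the Robos reached 6.09 to 12.1 CPM in HET against 8.14 to 15.3 CPM in KO.

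**Figure D2:**
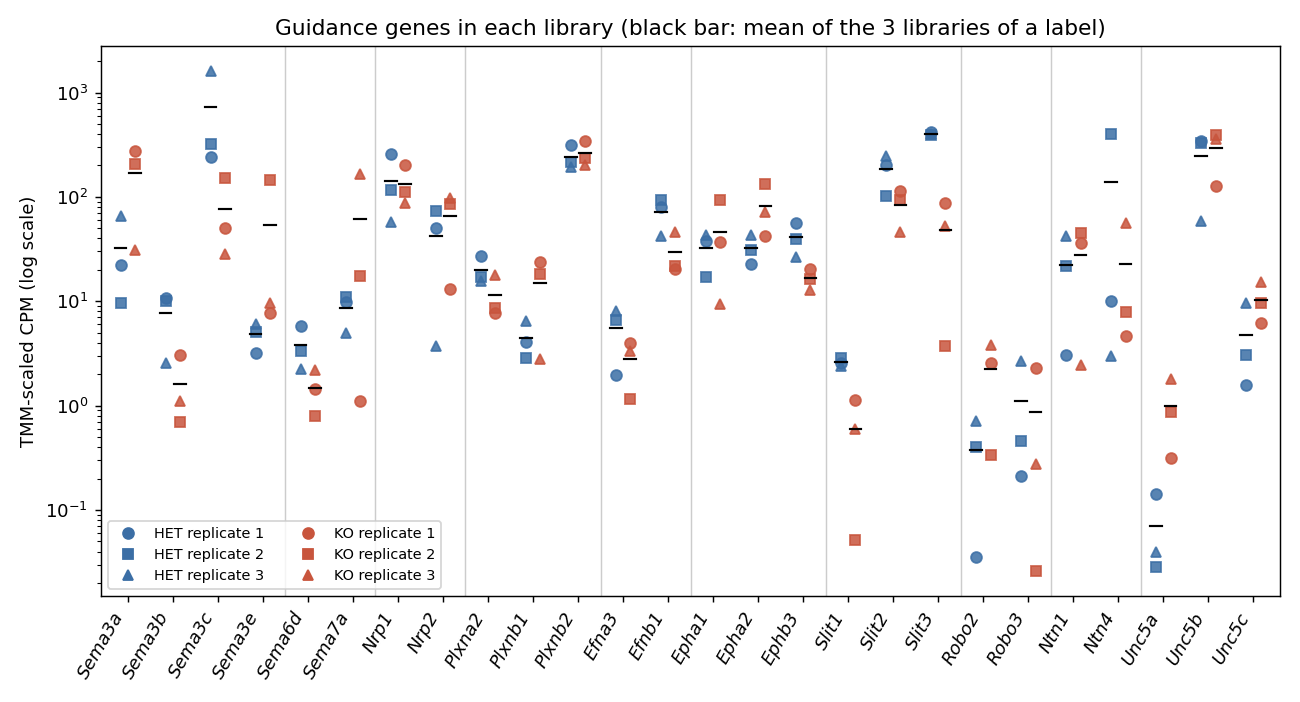
TMM-scaled CPM on a log scale for 26 guidance genes, grouped by family, with 1 symbol per library (blue for HET, red for KO, shape for the replicate) and a black bar at the mean of each label. Slit3 shows 3 HET points on top of one another above 3 spread KO points, while genes such as Ntn4 and Sema7a owe their high mean to a single library.

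Among class 3 semaphorins, Sema3c took a smaller share of the family in every KO library than in any HET library, and Sema3a a larger share. The level of Sema3a itself lay within its HET range in KO 3. Sema3c, a secreted semaphorin that acts through neuropilins, stood at 241, 324 and 1609 CPM in HET 1 to 3 and at 50.3, 152 and 28.2 CPM in KO 1 to 3. All HET libraries were above all KO libraries, and HET 3 alone was several times above the other HET libraries. The means were 725 ± 767 CPM and 76.8 ± 65.9 CPM (SD, n = 3 each), and the HET mean was 9.44 times the KO mean. The log2 fold change came to -3.24 ± 1.00 (SE), at an adjusted p of 0.579 in edgeR and 0.0256 in DESeq2. It was -1.88 without HET 3 and -1.52 without both libraries that share a title number. Sema3c lies on chromosome 5 from 17574281 to 17730268 (GRCm38, plus strand).

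Sema3a, which repels many axons and signals through neuropilin-1, was at 22.5, 9.70 and 66.1 CPM in HET and at 273, 207 and 30.7 CPM in KO. KO 1 and KO 2 were above every HET library, while KO 3 lay inside the HET range. On the log2 scale the fold change came to 2.38 ± 0.98 (SE), at an adjusted p of 0.581 in edgeR. It was 1.87 to 3.41 when 1 library at a time was left out.

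Sema3e, which binds plexin-D1 without a neuropilin, was at 3.22, 5.12 and 6.08 CPM in HET and at 7.73, 144 and 9.71 CPM in KO. The labels did not overlap, but KO 1 and KO 3 lay just above HET and KO 2 far above. A log2 fold change of 3.48 ± 1.23 (SE) was fitted, at an adjusted p of 0.579 in edgeR, and it was 0.85 without KO 2. Sema3b stood at 10.8, 10.0 and 2.55 CPM in HET and at 3.07, 0.697 and 1.11 CPM in KO. HET 3 lay under KO 1, and the log2 fold change came to -2.25 ± 0.79 (SE), at an adjusted p of 0.579 in edgeR. Sema3f was also highest in KO 2, at 73.9 CPM, and lowest in KO 3, at 0.278 CPM. KO 2 also had the highest epithelial marker sum, at 82.7 CPM. KO 3 came next, at 9.44 CPM, and was the library with the lowest Sema3f. The part of epithelial transcripts in the Sema3e and Sema3f levels was not tested. Sema3a, Sema3e and Sema3f were described after their values were seen.

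Per kb of exon, Sema3c made up 85.4%, 89.8% and 95.1% of the class 3 sum in HET and 22.4%, 31.4% and 50.8% in KO. Sema3a made up 4.09%, 1.38% and 2.01% in HET and 62.5%, 22.0% and 28.5% in KO. The shares did not overlap for either gene. They are parts of 1 sum, so a lower Sema3c share raises the other shares and the 2 results are not separate. In KO 3 the Sema3a level was 2.21 CPM per kb, inside its HET range of 0.699 to 4.76. The class 3 sum itself did overlap: it was 39.6, 50.6 and 237 CPM per kb in HET and 31.5, 67.8 and 7.76 CPM per kb in KO. In KO 2 Sema3e took 22.9% and Sema3f 21% of the sum, so that library held 4 class 3 genes at 14.2 to 21.3 CPM per kb. Sema3a, Sema3c, Sema3d and Sema3e lie within about 5 Mb of one another on chromosome 5, yet Sema3c was on the lower side in KO and Sema3a and Sema3e on the higher side. Sema3b and Sema3f lie 0.072 Mb apart on chromosome 9, with log2 fold changes of -2.25 and 1.29. The sign of Sema3f turned to that of Sema3b without KO 2, at -0.54, and by limma-voom, at -0.11.

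**Figure D3:**
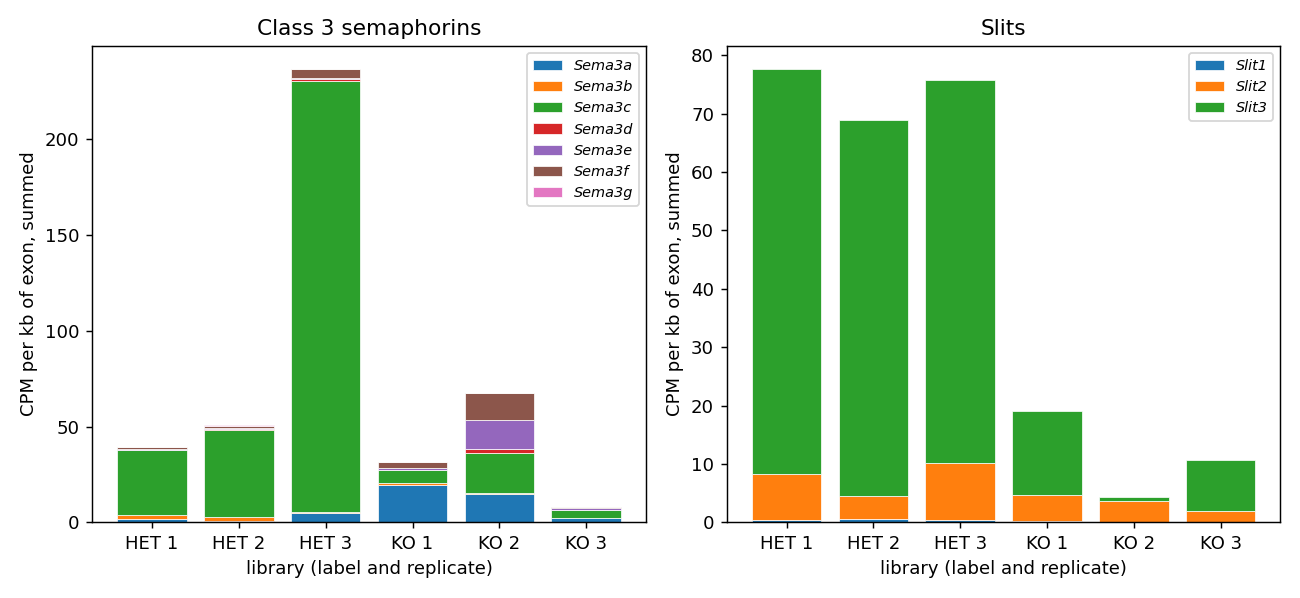
Stacked bars of CPM per kb of exon in each library, for the class 3 semaphorins (left) and the Slits (right), with 1 colour per gene. Sema3c fills most of each HET bar on the left and no more than 50.8% of any KO bar, and the Slit bars reach 68.9 to 77.7 in HET and 4.26 to 19.0 in KO.

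The neuropilins, the ligand-binding co-receptors of class 3 semaphorins, did not separate the labels. Nrp1 stood at 257, 116 and 57.8 CPM in HET and at 201, 112 and 87.8 CPM in KO, with a log2 fold change of -0.10 ± 0.59 (SE). Nrp2 stood at 50.3, 72.5 and 3.77 CPM in HET and at 13.1, 84.8 and 96.9 CPM in KO, with a log2 fold change of 0.62 ± 1.08 (SE). Both ranges overlapped, and Nrp2 had its low libraries in each label, HET 3 and KO 1.

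Of 9 plexins, the signalling receptors of semaphorins, 8 were tested and 0 were called by edgeR or DESeq2. Plxnb2 was among the steadiest guidance genes, at 316, 216 and 195 CPM in HET against 345, 235 and 204 CPM in KO. Its log2 fold change was 0.11 ± 0.31 (SE). Plxna1, described after its values were seen, was as abundant, at 257 to 453 CPM in HET against 207 to 464 CPM in KO. Plxnb1, a receptor of Sema4d, was at 4.04, 2.84 and 6.51 CPM in HET against 23.8, 18.3 and 2.82 CPM in KO. KO 1 and KO 2 were above HET and KO 3 was just under the lowest HET value, with a log2 fold change of 1.75 ± 0.77 (SE) and an adjusted p of 0.589 in edgeR. Plxna2 was at 27.0, 17.0 and 15.8 CPM in HET against 7.69, 8.65 and 17.9 CPM in KO, where KO 3 lay within HET, with a log2 fold change of -0.81 ± 0.42 (SE). Plxnc1, the receptor of Sema7a, was highest in HET 2 and KO 3, at 10.1 and 3.73 CPM, and was at 0.0682 to 0.51 CPM in the other 4 libraries. Those 2 libraries are the ones with leukocyte transcripts, and the part of leukocytes in the Plxnc1 level was not tested. Exons of Plxnb1 and Plxna1 overlap those of Gm7628 and Gm26811, so reads may have been shared there.

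The 13 semaphorins of classes 4 to 7 held no gene at an unadjusted p under 0.05. Sema6d, a transmembrane semaphorin, was the only tested gene of this family whose labels did not overlap. It was at 5.81, 3.33 and 2.24 CPM in HET and at 1.46, 0.801 and 2.22 CPM in KO, with KO 3 just under HET 3. Its log2 fold change came to -1.35 ± 0.56 (SE), at an adjusted p of 0.582 in edgeR. Sema7a, which is linked to the membrane by a lipid anchor, stood at 9.92, 11.0 and 5.02 CPM in HET against 1.11, 17.4 and 166 CPM in KO. KO 1 was the lowest library and KO 3 the highest, and the log2 fold change of 2.83 ± 1.5 (SE) was 0.09 without KO 3. KO 3 and HET 2 carried leukocyte transcripts, and their part in the Sema7a level was not tested.

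Sema4c, at 10.2 to 19.3 CPM in all 6 libraries, was steady across both labels. Sema6a was low in 5 libraries, at 0.106 to 2.18 CPM, and stood at 11.8 CPM in KO 1. Sema4d was highest in KO 2, at 10.5 CPM. Sema5b had 13 counts in HET 1, 10 in HET 2 and 0 in the other 4 libraries. These 4 genes were named after their values were seen.

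Ephb3 was lower in all 3 KO libraries than in any HET library, at 56.5, 39.7 and 26.7 CPM in HET and at 20.5, 16.3 and 12.9 CPM in KO. It is a receptor kinase for B-class ephrins and lies on chromosome 16 from 21204755 to 21223305 (GRCm38, plus strand), directly after the first sequence shown above. The means were 41.0 ± 15.0 CPM and 16.6 ± 3.82 CPM (SD, n = 3 each), and the HET mean was 2.47 times the KO mean. The log2 fold change came to -1.30 ± 0.34 (SE), at an adjusted p of 0.579 in edgeR and 0.0697 in DESeq2. It was -0.99 to -1.53 when 1 library at a time was left out.

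Epha2, the main receptor of ephrin-A1, was at 22.8, 31.3 and 43.3 CPM in HET and at 42.0, 134 and 71.0 CPM in KO. KO 1 lay just under HET 3, and KO 2 and KO 3 were above all HET libraries. The log2 fold change came to 1.34 ± 0.47 (SE), at an adjusted p of 0.579 in edgeR, and it was 0.80 without KO 2. Epha1 was at 38.0, 17.1 and 43.1 CPM in HET and at 37.2, 92.6 and 9.52 CPM in KO, so both the highest and the lowest library were labelled KO. Exons of Epha1 overlap those of Zyx on the opposite strand, which stood at 798 to 1822 CPM, and the sources used here do not give the strand setting of the counting. Reads of the pair may therefore have been shared, and the Epha1 values are uncertain.

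Of the other Eph receptors, Epha4 was at 66.2, 53.7 and 30.6 CPM in HET against 19.2, 35.4 and 10.1 CPM in KO, with KO 2 above HET 3. Ephb4, the ephrin-B2 receptor, was at 38.3 to 61.2 CPM in HET against 39.4 to 83.2 CPM in KO. Its exons overlap Zan, which was at 0.114 to 1.43 CPM. Ephb6, a kinase-dead member, reached 48.0 CPM in KO 1 and 1.55 CPM in KO 3. Epha3 was at 9.36 CPM in HET 2 and at 0 to 2.14 CPM elsewhere. Epha5, Epha6, Epha8, Epha10 and Ephb1 had between 0 and 6 counts in each library and were not tested. Epha4, Ephb4, Ephb6 and Epha3 were described after their values were seen.

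Among ephrins, Efnb1 was the most abundant per kb of exon and Efnb2 was nearly as abundant. Efnb1 was at 80.8, 92.7 and 42.3 CPM in HET and at 20.3, 21.6 and 46.5 CPM in KO. KO 3 lay above HET 3, and the other KO libraries were under all HET libraries. The log2 fold change came to -1.29 ± 0.45 (SE), at an adjusted p of 0.579 in edgeR. Efnb2 was at 59.4 to 116 CPM in HET against 46.2 to 176 CPM in KO, with a log2 fold change of 0.36 ± 0.52 (SE), which was -0.24 without KO 2. Efna3 was at 1.98, 6.68 and 8.0 CPM in HET against 3.96, 1.16 and 3.37 CPM in KO, and its exons overlap those of Gm15998, at 0.313 to 0.567 CPM. Efna1, the ligand of Epha2, stood at 9.74 CPM in KO 2 and at 0.278 to 1.63 CPM in the other 5 libraries. KO 2 was thus the highest library for both Efna1 and Epha2. It was also the library with the most epithelial transcripts and the least Tgfb1i1, and the part of either in these levels was not tested. Summed over all 8, the ephrins were steady, at 40.8, 47.8 and 48.3 CPM per kb of exon in HET and 37.6, 49.8 and 34.8 in KO. Efnb2 and Efna1 were described after their values were seen.

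Neither tested netrin separated the labels. Ntn4, a basement membrane netrin, stood at 10.1, 404 and 3.02 CPM in HET and at 4.66, 7.93 and 56.3 CPM in KO. HET 2 and KO 3 were far above the other 4 libraries. Its log2 fold change of -2.60 ± 1.88 (SE) became 1.81 without HET 2, and -0.09 without both HET 2 and KO 3. Those 2 libraries also carried leukocyte transcripts, and HET 2 also had the highest smooth muscle marker Myh11, at 244 CPM. The part of other cell types in Ntn4 was not tested. Ntn1 was at 3.05, 22.0 and 42.1 CPM in HET against 36.3, 45.4 and 2.46 CPM in KO, with a low library in each label. Its log2 fold change was 0.33 ± 1.17 (SE) with all libraries and -0.19 without KO 2. Ntn5 had 0 counts in all 6 libraries, where 3 counts would be 0.0706 to 0.1202 CPM.

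Unc5b made up 94.8% to 99.8% of the Unc5 sum per kb of exon in every library. It stood at 344, 330 and 58.7 CPM in HET and at 127, 389 and 357 CPM in KO, so each label held 1 low library, HET 3 and KO 1. Unc5c was at 1.59, 3.04 and 9.57 CPM in HET against 6.14, 9.69 and 15.1 CPM in KO, with a log2 fold change of 1.12 ± 0.72 (SE) and an adjusted p of 0.641 in edgeR. The Unc5c value was 2.15 without HET 3 and 0.49 without both HET 2 and KO 3. Unc5a, whose labels did not overlap, rested on 4, 1 and 1 counts in HET and 14, 34 and 45 counts in KO. In CPM these were 0.142, 0.0284 and 0.0392 against 0.318, 0.878 and 1.78, and 2 of the 3 HET values lay under 3 counts. Its edgeR adjusted p was 0.579, and its fitted fold change depends on so few HET counts that no size is given. Unc5a lies on chromosome 13 from 54949411 to 55006018 (GRCm38, plus strand), and its exons overlap Hk3 on the opposite strand. Hk3 was highest in HET 2 and KO 3, at 7.22 and 3.97 CPM, and was at 0 to 0.0455 CPM elsewhere. Whether reads of Hk3 entered the Unc5a counts was not tested.

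Seen by library, KO 1 was the highest of the 6 for 15 of 56 tested guidance genes, or 26.8%, beside 15.9% of all genes. KO 2 was highest for 11, or 19.6%, beside 26.3% of all genes. A level over 4 times that of every other library was found for Epha3 and Ntn4 in HET 2, Sema3c in HET 3 and Sema6a in KO 1. The same held for Efna1 and Sema3e in KO 2, and for Sema7a in KO 3. Of all genes, such levels were found for 0.199% in HET 2, 0.313% in HET 3, 0.256% in KO 1, 0.995% in KO 2 and 0.142% in KO 3. Lowest by more than 4 times against every other library were Efnb3, Robo3, Sema6b, Slit1 and Slit3 in KO 2. So were Epha3, Robo2 and Sema3d in HET 1, Sema4f and Sema7a in KO 1, and Ephb6 and Sema3f in KO 3. Of all genes, 4.08% were lowest by this measure in KO 2, 1.73% in HET 1, 1.09% in KO 1 and 0.409% in KO 3. Without KO 2, genes whose labels do not overlap must stay so, and Epha4 and Ephb2 joined the lower side and Robo2 and Sema6a the higher side. The resulting 4 higher and 7 lower genes are 7.14% and 12.5% of the guidance genes, beside 10.6% and 10.1% of all genes.

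**Figure D4:**
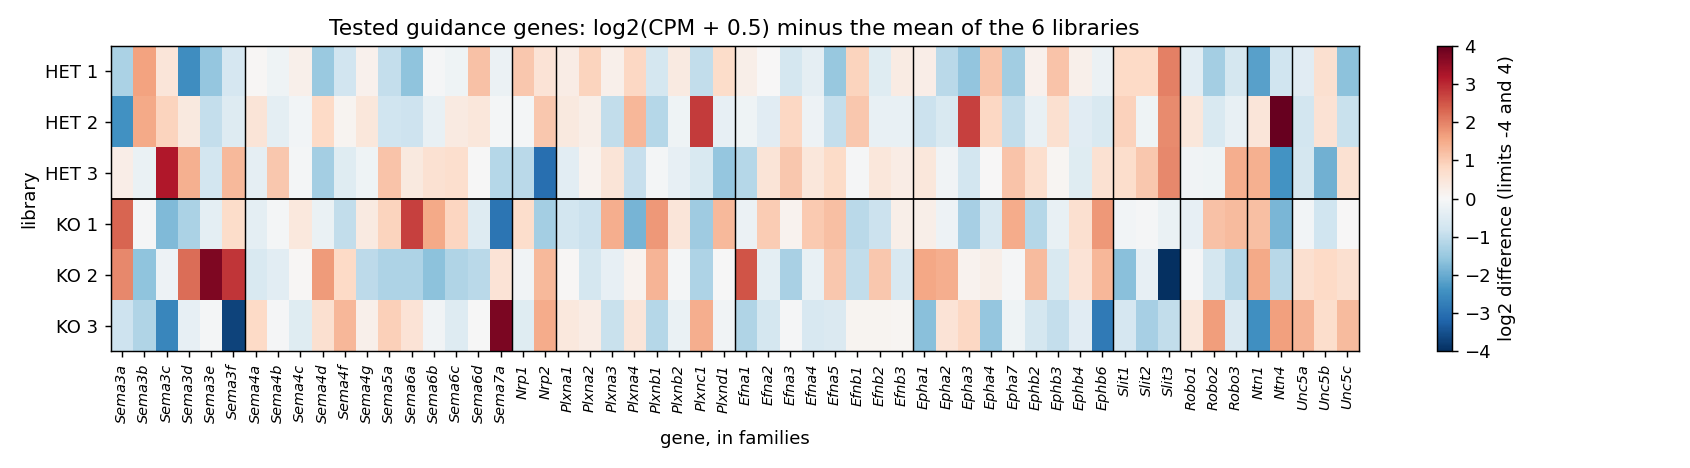
Heat map of log2(CPM + 0.5) minus the mean of the 6 libraries for the 56 tested guidance genes (columns, by family) in each library (rows), with colours limited to -4 and 4. Slit3 is above its mean in all 3 HET rows and below it in all 3 KO rows, while Sema7a and Sema3e each have 1 extreme library.

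Levels could be compared between guidance genes only after a check of gene length. The deposited RPKM, a count scaled by library total and gene length, implied a length for each gene, and over 14473 genes this length kept a fixed ratio to the genomic span, introns included, within 1% for 91.7% of genes. It kept a fixed ratio to the summed exon length for 0.7% of them. Of the 66 guidance genes with an implied length, 60 followed the span, and Epha8, Nrp1, Plxnb2, Robo1, Robo4 and Sema4d did not. Long guidance genes therefore had low RPKM: Slit3, whose span is 587.3 kb and whose exons sum to 6.07 kb, was the fourth per kb of exon and the 25th by RPKM. Per kb of exon the most abundant were Sema3c (56.1 CPM per kb), Unc5b (42.8), Plxna1 (39.8), Slit3 (37.2), Plxnb2 (32.6) and Ntn4 (21.7), as means over the 6 libraries. By RPKM the order began with Plxnb2 (13.2), Plxna1 (6.29), Unc5b (3.16) and Efnb1 (3.13). The sources used here do not say whether reads in introns were counted, so a level per kb of exon may hold intronic reads.

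**Figure D5:**
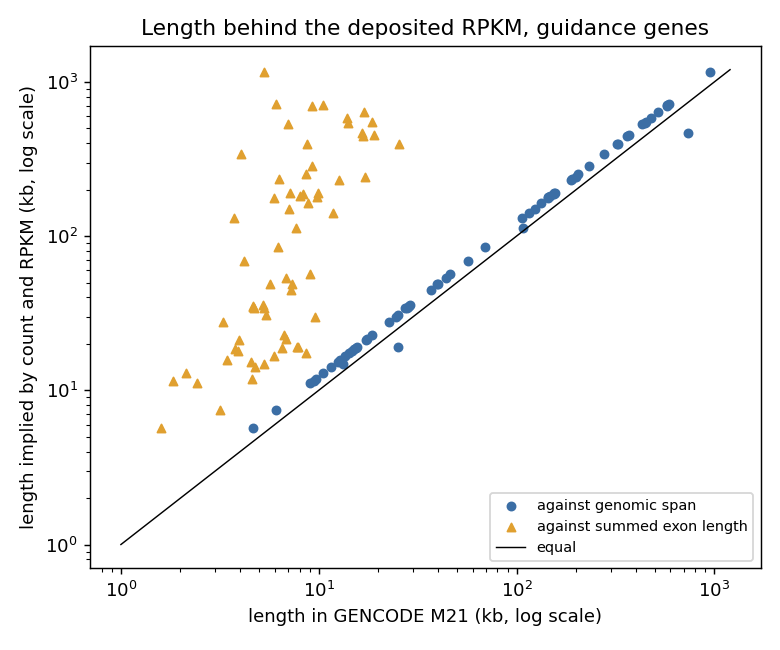
Length implied by the deposited count and RPKM (vertical axis, kb, log scale) against GENCODE M21 length (horizontal axis, kb, log scale) for the 66 guidance genes with counts, as genomic span (blue circles) and summed exons (orange triangles), with a line of equality. The circles run parallel to the line, at a median ratio of 1.2245 over all genes compared, and the triangles show no such line.

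Partner genes of the guidance pathways were 74 co-receptors and signalling proteins, of which 67 were tested. Their highest library was a median 2.83 times the lowest, again leaving out genes with no count in some library. By edgeR 0 of the partners passed the adjusted threshold, while DESeq2 called Draxin, at an adjusted p of 0.0196. At an unadjusted p under 0.05, 3 were higher in KO (Dscam, Abl2 and Pak1) and 5 lower (Draxin, Dag1, Ntng2, Rras and Maged1), or 4.48% and 7.46% beside 4.30% and 4.29% of all genes. Their median log2 fold change was -0.02. Draxin, a secreted netrin antagonist, was at 0.921, 1.25 and 2.55 CPM in HET against 0.159, 0.207 and 0.278 CPM in KO. Dscam, a netrin co-receptor, was at 0.0569 to 0.354 CPM in HET and at 12.3, 0.517 and 0.634 CPM in KO. Rras, a GTPase that plexins inactivate, was at 54.3 to 111 CPM in HET against 36.9 to 48.3 CPM in KO. Dpysl2, a mediator of Sema3a signalling, was at 33.3 to 48.9 CPM in HET against 27.8 to 35.3 CPM in KO.

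Abl2, a kinase downstream of Eph receptors, was at 59.9 to 78.5 CPM in HET against 96.5 to 157 CPM in KO. Sipa1l1 was at 147 to 298 CPM in HET against 61.7 to 180 CPM in KO. Enah and Evl, actin regulators of the Ena/VASP family, were at 99.6 to 202 and 14.6 to 29.8 CPM in HET, and at 76.9 to 114 and 12.5 to 16.3 CPM in KO. Pak1, a kinase activated by Rac, was at 34.7 to 43.7 CPM in HET against 53.8 to 98.3 CPM in KO. Maged1, which binds Unc5 receptors, was at 491 to 695 CPM in HET against 209 to 444 CPM in KO. The labels did not overlap for 8 of the 67 tested partners (Draxin, Dscam, Rras, Abl2, Pak1, Maged1, Dag1 and Ntng2), or 11.9% beside 15.5% of all genes in both directions together.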

How the data were processed

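Libraries were grouped by the genotype label, with 3 HET and 3 KO. Stranded libraries were built from Trizol-extracted total RNA after ribosomal RNA removal, per the labels' protocols. Partek, Bowtie2, cutadapt 1.2.1 and the builds GRCm38 and mm10 come from the submitters' processing notes. Neither counting method nor annotation is given in the sources used here. Values are, as deposited, an estimated count per gene not scaled between libraries, of which 85.0% were whole numbers (tolerance 1e-09). A second deposited value is RPKM, which adjusts for library total and gene length.

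Of 48408 rows per table, 30 with values moved to another column were left out and 7 repeated symbols were summed. The rows of the guidance genes were then taken by symbol. Counts were rounded, filtered with filterByExpr, scaled by TMM and compared in edgeR 4.0.16 (R 4.3.3) by its two-sided quasi-likelihood test, with Benjamini-Hochberg adjustment over all tested genes. The standard error of a fold change is its log2 size over √F. The fit was also run on simulated data, and the outcome is not given here. Exon lengths and spans are from GENCODE M21. A floor of 3 counts was 0.0706 to 0.1202 CPM and covers counting error only. Alternatives used DESeq2 1.42.0, limma 3.58.1, other scalings and filters, a title-number term, and libraries left out.

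In each family the rule named the 2 tested genes of smallest unadjusted p and the gene of highest mean RPKM, and 2 genes per partner group. The guidance genes, the partner and marker lists and this rule were chosen with earlier results of these data known. Leaving out HET 2 and KO 3 together was chosen after seeing the data.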

Additional observations from a re-analysis of the deposited data

How the results depend on the processing

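Under 17 alternatives, 14 of the 23 guidance genes named by the rule kept the sign of their log2 fold change, among them Slit3, Slit2, Sema3c, Sema3b, Sema6d, Ephb3, Epha2 and Efnb1, wherever they were tested. The rule picked genes partly by small p in these same libraries, and every alternative reuses those libraries. A kept sign is therefore not independent support. For Slit3, Sema3c, Sema6d and Ephb3 the labels do not overlap, so leaving libraries out could hardly turn the sign. No guidance gene and no other gene passed the adjusted threshold in any alternative except DESeq2, which called 232 genes and 2 guidance genes. The count of guidance genes at an unadjusted p under 0.05, 10 with all libraries, was 17 without HET 3 and KO 3, which share a title number, and 6 by limma on log2(RPKM + 0.1) or log2(RPKM + 1). It was 4 to 14 when 1 library at a time was left out, with 4 without HET 1 and 6 without HET 2. The share of all genes at this threshold was not counted under the alternatives. These counts therefore do not show whether guidance genes differed from other genes there. The median log2 fold change of guidance genes, 0.18, was 0.33 without HET 3 and KO 3, 0.27 without HET 2 and KO 3, 0.31 with library totals alone (which moved the median of all genes to 0.15), 0.066 and 0.016 by limma on log2(RPKM + 0.1) and log2(RPKM + 1), 0.078 by limma-voom, and -0.069 to 0.24 when 1 library was left out.

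Signs reversed for 9 genes of small or library-bound fold change. With 1 library left out, the log2 fold change ranged from -0.47 to 1.00 for Epha1, -0.53 to 0.63 for Nrp1, -0.19 to 1.17 for Ntn1, -4.49 to 1.81 for Ntn4, -0.14 to 0.35 for Plxnb2, -2.90 to 1.39 for Robo3 and -0.21 to 0.60 for Unc5b. Nrp1 was 0.058 with library totals alone, 0.15 and 0.044 by limma on log2(RPKM + 0.1) and log2(RPKM + 1), 0.060 by limma-voom and 0.032 with a term for that title number. Robo3 was 0.42 with that term. Without HET 3 and KO 3, Nrp2 was -0.37, Robo3 1.79, Sema7a -0.22 and Unc5b -0.42. The cause of these changes was not tested. Unc5a, Robo2 and Robo3 were not tested at a filter of 1 CPM in 3 libraries, and Unc5a was not tested without KO 2. No paired analysis was possible because the replicate numbers follow accession order and only 1 title number is shared between labels. Libraries of a label spread widely for many of these genes, and Unc5a, Robo2, Robo3, Slit1 and Efnb3 also rest on few counts. How far spread or depth limits each value was not tested.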
